A study of Caenorhabditis elegans with 2 samples.

Results

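The genes end-1, end-3 and elt-7 encode the GATA-type zinc finger factors that commit cells to the endoderm of Caenorhabditis elegans and start intestinal differentiation. They were chosen by name, as 3 of 19973 annotated protein-coding genes, and their surroundings were read as every called region whose summit lay within 10 kb of the annotated gene. This gave 21 of the 30000 regions called on both replicates pooled, 22 of 30000 called on replicate 1 alone and 16 of 30000 called on replicate 2 alone.

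The data are ChIP-seq of ELT-4, another small GATA factor of the intestinal lineage, in whole hermaphrodite late embryos taken 3 hours after synchronization by egg bleaching. The animals were of strain OP111, which carries the unc-119(ed3) allele on chromosome III and the integrated transgene wgIs111, from which ELT-4 is made with GFP and FLAG joined to its C terminus. The labels differ on the antibody: their description names one to GFP, while their antibody field names elt-4, and one to ELT-4 itself could also bring down the untagged protein. The 2 biological replicates form a single group with no comparison group, and both carry the transgene beside the resident elt-4 locus. Whole animals were used, so the chromatin came from all tissues and not from the intestine alone.

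In the embryo, the maternal factor SKN-1 activates the paired genes med-1 and med-2, whose products bind upstream of end-3 and end-1, and Wnt signalling through POP-1 restricts these genes to the gut precursor. END-3 and END-1 are expressed briefly in the early endoderm and turn on elt-7 and elt-2. ELT-2 and ELT-7 then maintain intestinal gene expression, largely through sites of the sequence TGATAA, whereas the role of ELT-4 is little known.

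All 3 genes lie on the plus strand of chromosome V (ce11). The gene end-1 (WBGene00001310) spans chrV:13985128-13987074 with 4 exons, eol-1 lies 4220 bp upstream of it, and the end of ric-7 on the other strand lies 89 bp downstream. The gene end-3 (WBGene00001311) spans chrV:14014695-14015980 with 4 exons, 27620 bp past the end of end-1, with aip-1 1050 bp upstream and the convergent srh-308 overlapping its last bases. The gene elt-7 (WBGene00015981) spans chrV:4770670-4773086 with 2 annotated transcripts and up to 4 exons, with the divergent C18G1.9 936 bp upstream and C18G1.1 4873 bp downstream.

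The sequence just upstream of each start is shown first, to set the GATA-type sites that precede each gene beside the summits. Capitals mark the sites searched for, which are AGATAA and the form ending in G, AGATAG, and likewise TGATAA and the form TGATAG, on either strand, and each run is the plus strand of the 300 bp before the annotated start, from RefSeq assembly WBcel235.
end-1, chrV:13984828-13985127: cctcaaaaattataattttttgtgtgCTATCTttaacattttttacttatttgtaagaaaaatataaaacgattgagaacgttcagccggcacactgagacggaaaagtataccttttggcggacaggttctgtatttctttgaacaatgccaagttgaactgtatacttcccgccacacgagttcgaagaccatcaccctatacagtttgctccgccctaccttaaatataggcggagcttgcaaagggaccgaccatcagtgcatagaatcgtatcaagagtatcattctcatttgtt
end-3, chrV:14014395-14014694: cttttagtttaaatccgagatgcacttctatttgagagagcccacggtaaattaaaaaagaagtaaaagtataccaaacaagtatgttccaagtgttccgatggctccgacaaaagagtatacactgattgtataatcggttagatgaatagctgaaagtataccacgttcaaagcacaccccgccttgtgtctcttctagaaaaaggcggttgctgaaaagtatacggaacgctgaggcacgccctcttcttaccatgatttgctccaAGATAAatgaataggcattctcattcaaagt
elt-7, chrV:4770370-4770669: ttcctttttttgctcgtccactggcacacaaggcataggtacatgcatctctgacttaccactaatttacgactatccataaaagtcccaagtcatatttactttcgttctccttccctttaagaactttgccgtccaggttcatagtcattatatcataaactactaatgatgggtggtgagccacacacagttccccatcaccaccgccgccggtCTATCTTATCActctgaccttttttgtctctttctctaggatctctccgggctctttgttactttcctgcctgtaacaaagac

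In these stretches end-1 had 1 such site, centred 272 bp before its start, and end-3 had 1, centred 29 bp before its start. Another site was centred at the annotated start of end-1 itself, and so is not whole in the stretch shown. The gene elt-7 had 2 that overlap each other, centred 76 and 81 bp before its start, of which 1 is TGATAA. At least 1 site occurred in the same 300 bp of 54.9% of all protein-coding genes, and at least 2 in 22.3%. The sequence AGTATAC, the core bound by the MED factors, occurred 2 times upstream of end-1, 4 times upstream of end-3 and 0 times upstream of elt-7 (either strand), and at least 1 copy lay there in 1.80% of all protein-coding genes. No pooled summit lay in any of these 300 bp stretches. The share of all protein-coding genes with a pooled summit in the same 300 bp is not given here. For the longer stretch from 1000 bp before to 200 bp after a start it was 33.7%, so most genes had none there. The nearest pooled summits were 1724 bp from the end-1 site, 1385 bp from the end-3 site and 885 bp from the closer elt-7 site.

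None of the 3 genes had an IDR peak within 10 kb (7.33% of all protein-coding genes had at least 1), that is, a region kept by the irreproducible discovery rate filter. Each region carries a q-value and a signal, which is the authors' measure of its strength in units that the sources used here do not name. A q-value of at most 0.05 was reached by 1 of the 21, which lay near end-3, and by 4.26% of all pooled regions. By gene, 1 of the 3 had such a region within 10 kb, against 23.1% of all protein-coding genes. The 21 signals ran from 22.3 to 66.7 with a median of 28.5, against a median of 30.5 over all 30000 pooled regions.

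**Figure D1:**
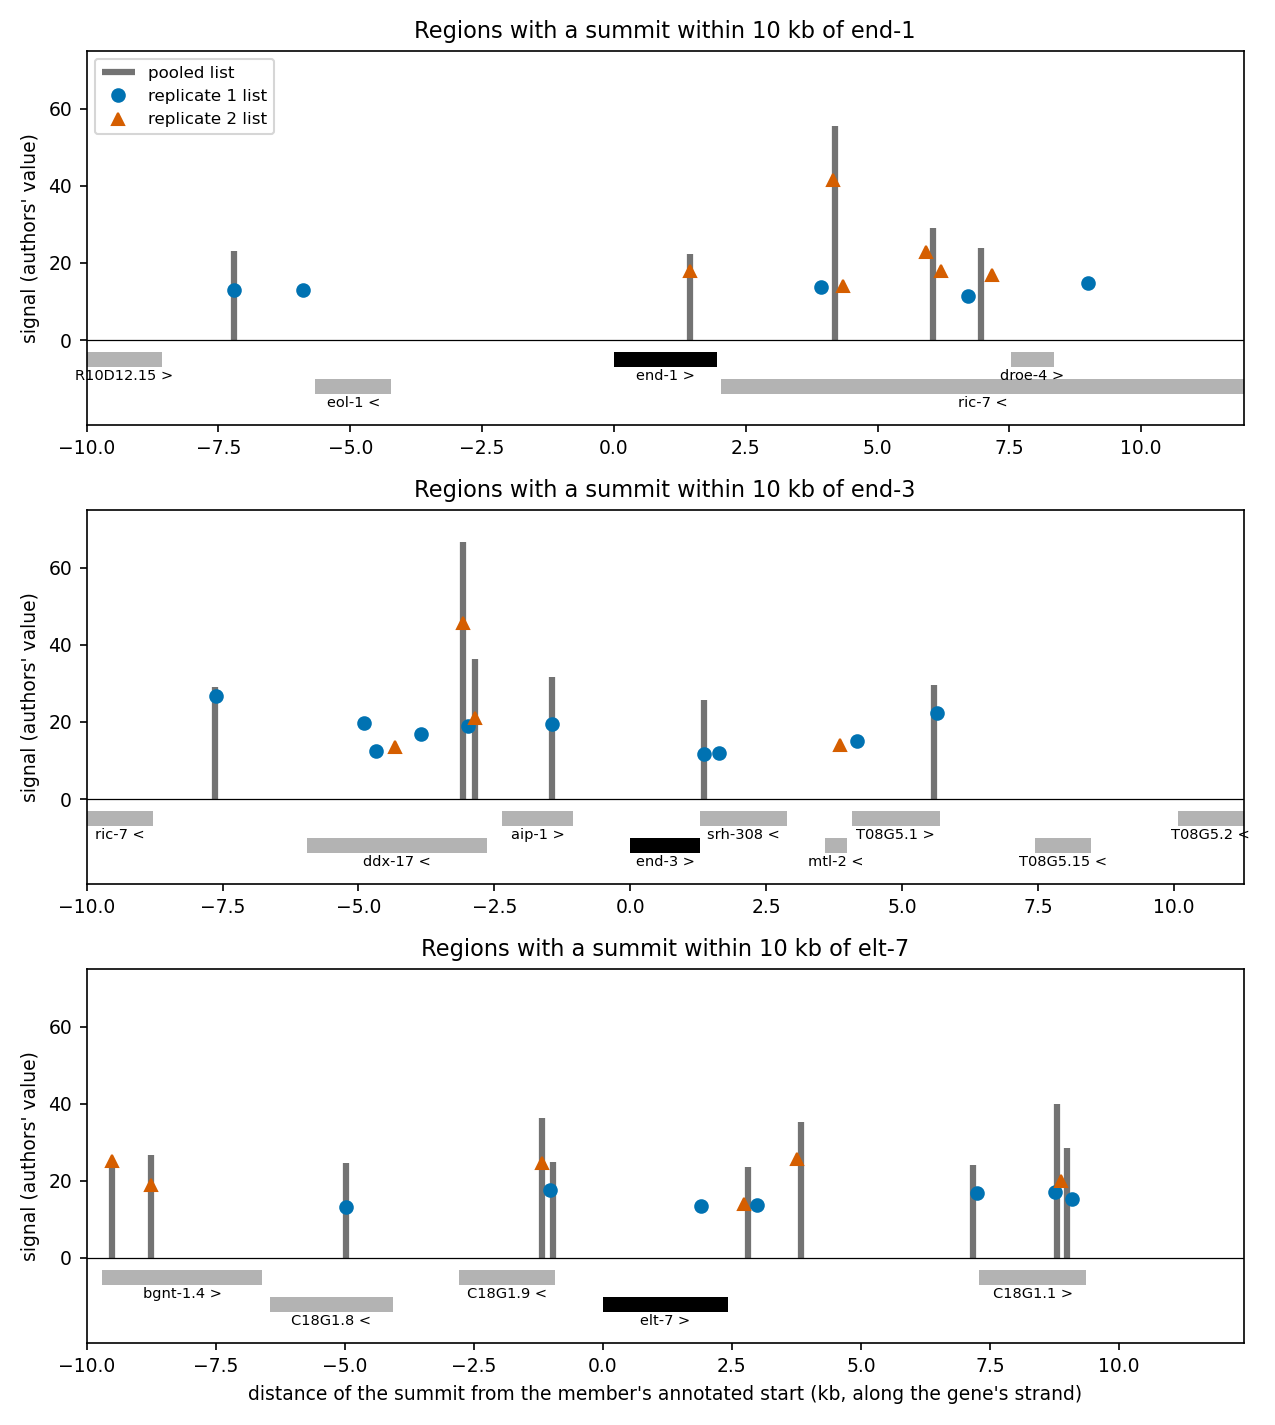
Signal of each region (y axis, the authors' value) against the distance of its summit from the annotated gene start (x axis, kb along the gene's strand), for the pooled list (grey bars) and the list of replicate 1 (circles) and replicate 2 (triangles). Bars below the axis are protein-coding genes, the member in black, and arrows give their strand; the highest bars stand over ric-7 (55.5) and ddx-17 (66.7), not over end-1 or end-3.

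Around end-1 there were 5 pooled regions, and 70.9% of protein-coding genes had at least as many within 10 kb. The strongest, at chrV:13989090-13989559, had a pooled signal of 55.5, rank 2122 and a q-value of 0.107, and 33.8% of protein-coding genes had a region of at least that rank within 10 kb. Its summit lay 2251 bp past the end of end-1, in an intron of ric-7, a gene needed for mitochondrial transport in neurons, and the nearest annotated start, 1522 bp away, was also one of ric-7. The pooled region overlapped a region of signal 41.4 and rank 571 in replicate 2 (q-value 0.0289). In replicate 1 the overlapping region had signal 13.8 and rank 21735 (q-value 0.784), or 27.6 ± 19.6 over both (mean ± SD, n = 2). How much each replicate gave to the pooled signal was not measured. The replicate 2 signal was thus 3.01 times that of replicate 1, a ratio reached by 0.388% of the 16769 pooled regions that overlapped both replicate lists, whose median ratio was 1.13. The summits of the overlapping regions lay 3924 bp (replicate 1) and 4147 bp (replicate 2) from the end-1 start, and the pooled summit lay 4197 bp from it. The replicate 1 region, chrV:13988830-13989273, ended short of both the pooled summit and the replicate 2 summit. The mean, SD and ratio above thus compare overlapping regions centred at different places, not 2 readings of the same summit. Without replicate 2, the highest signal near end-1 was instead 14.7, at another place in ric-7.

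The other 4 regions near end-1 were weak, with pooled ranks from 16610 to 27798. The lone region with its summit inside a member gene was the weakest of the 21: it lay in an intron of end-1, 1452 bp from the start, with a pooled signal of 22.3 and a q-value of 0.859. Replicate 2 had a region there of signal 18.0 (rank 15659), and replicate 1 had none. Further along ric-7, the summits 4100 and 5017 bp past end-1 had signals of 29.2 and 23.8. The upstream summit, 7215 bp before end-1 in intergenic sequence, had 23.0 and was matched in replicate 1 alone (13.1). Replicate 1 also listed regions at 5906 bp upstream (12.9) and 7036 bp downstream (14.7) of end-1 that overlapped no pooled region. Its strongest region near end-1 was the last of these, at rank 19122.

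Around end-3 there were 6 pooled regions, and 60.3% of protein-coding genes had at least as many. The strongest, at chrV:14011378-14011847, had a pooled signal of 66.7, rank 876 and a q-value of 0.0246, and 16.9% of protein-coding genes had a region of at least that rank within 10 kb. The weakest IDR peak had 78.7. The summit lay 3082 bp upstream of the end-3 start, in coding sequence of ddx-17, a DEAD-box RNA helicase gene on the other strand, and 203 bp from the nearest annotated transcript start of ddx-17, with aip-1 between it and end-3. Replicate 2 had a region of signal 45.7 and rank 313 there (q-value 0.0176), and replicate 1 had 18.9 at rank 10174 (q-value 0.487), or 32.3 ± 19.0 (mean ± SD, n = 2). The replicate 2 signal was 2.42 times that of replicate 1, a ratio reached by 2.37% of the pooled regions in both lists. Without replicate 2, the highest signal near end-3 was instead 26.7, at another place, 7615 bp upstream.

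A second pooled region overlapped it, with the summit 2853 bp upstream of end-3 in the 5′ UTR of ddx-17 and a signal of 36.4 (rank 9447). Replicate 2 listed a separate region 2859 bp upstream with signal 20.9 (rank 10446), while the single replicate 1 region, 2979 bp upstream, overlapped both pooled regions. Closer to end-3, the summit 1441 bp upstream lay in coding sequence of aip-1, which encodes an arsenite-inducible protein, with 31.6, and was matched in replicate 1 alone (19.5, rank 9318). The summit nearest to end-3 lay 71 bp past its end, in coding sequence of srh-308, a chemoreceptor-family gene, with 25.6 (rank 21774), and replicate 2 had no region there. The farthest on each side, 7631 bp upstream between ric-7 and ddx-17 and 4303 bp downstream in coding sequence of T08G5.1, had pooled signals of 29.1 and 29.6. Both were matched in replicate 1 alone, at 26.7 (rank 3052, its best near end-3) and 22.2 (rank 6192). Replicate 1 thus had 10 regions near end-3 and replicate 2 had 4, with 4 and 2 of them outside every pooled region. One of those of replicate 2 lay in coding sequence of mtl-2, a metallothionein gene of the intestine, at signal 13.9 and rank 26786, 2564 bp past end-3.

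Around elt-7 there were 10 pooled regions, the highest count of the 3 genes, and 23.8% of protein-coding genes had at least as many. None stood out: the signals ran from 23.5 to 39.8 and the best rank was 7194, and 70.5% of protein-coding genes had a region of at least that rank within 10 kb. That region, at chrV:4779233-4779702, lay 6382 bp past the end of elt-7 in an intron of C18G1.1, with a q-value of 0.404. Its replicate signals were 17.0 in replicate 1 (rank 13520) and 19.98 in replicate 2 (rank 11885), or 18.5 ± 2.08 (mean ± SD, n = 2), and an overlapping pooled region in the next coding exon had 28.5. Unlike the strongest regions near end-1 and end-3, its replicate signals differed by a ratio of 1.17, close to the median of 1.13.

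Of the 3 genes, elt-7 was the one with a pooled summit in its promoter window, the stretch that starts 1000 bp before an annotated start and ends 200 bp after it (33.7% of protein-coding genes had at least 1). That summit lay 966 bp upstream, in the 5′ UTR of the divergent gene C18G1.9 and 29 bp from the start of C18G1.9, with a pooled signal of 24.9, rank 22920 and a q-value of 0.807. It overlapped a stronger pooled region whose summit, 1179 bp upstream of elt-7 in an intron of C18G1.9, fell outside the window (36.2, rank 9574). The 2 pooled regions overlapped the same replicate regions, of signal 17.6 in replicate 1 (rank 12362, summit 1024 bp upstream) and 24.5 in replicate 2 (rank 6405, summit 1174 bp upstream). Neither replicate therefore had a summit in the promoter window of elt-7. Past the gene, the summits 388 and 1421 bp downstream had 23.5 and 35.2; the first was matched in both replicates (13.6 and 14.0 in replicates 1 and 2) and the second in replicate 2 alone (25.6, rank 5390, its best near elt-7). Replicate 1 alone listed a region inside elt-7, with the summit in an intron 1896 bp from the start, a signal of 13.5 and rank 22443. The remaining 4 pooled regions lay 4982, 8750 and 9513 bp upstream, in introns of C18G1.8 and bgnt-1.4 (24.6, 26.7 and 25.2), and 4761 bp downstream, 113 bp before C18G1.1 (24.1).

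**Figure D2:**
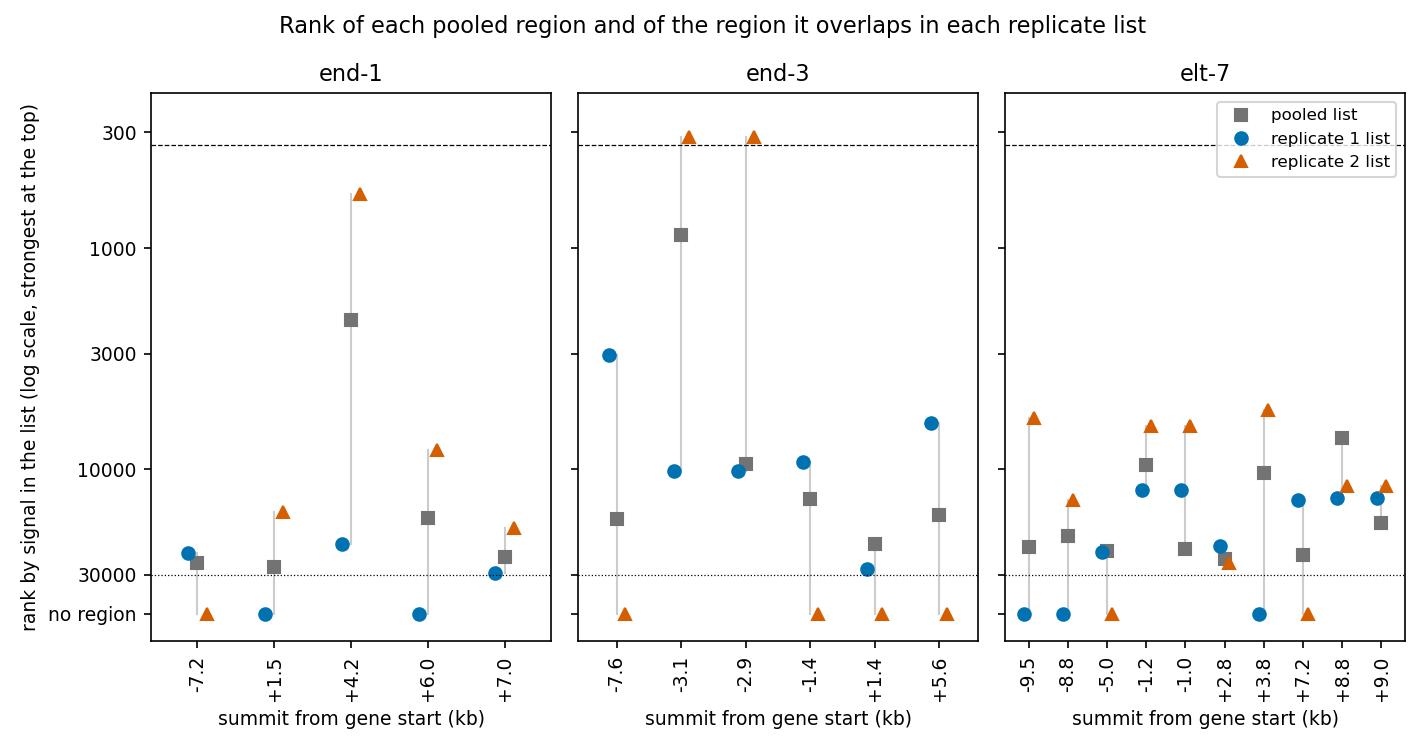
Rank by signal (log scale, strongest at the top) of each of the 21 pooled regions (squares) and of the strongest region it overlaps in replicate 1 (circles) and replicate 2 (triangles), by distance of the summit from the gene start. The dashed line is rank 342, the number of IDR peaks. The dotted line is the last rank of 30000, and symbols below it mean no overlapping region. Only the ddx-17 pair near end-3 has a replicate symbol (rank 313) above the dashed line. That symbol is the same replicate 2 region drawn at both summits. The summit 2853 bp upstream also had a closer replicate 2 region, of rank 10446, which is not drawn.

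Of the 21 pooled regions, 9 overlapped a region of both replicate lists (55.9% over all pooled regions), 7 of replicate 1 alone and 5 of replicate 2 alone. By gene, those overlapping both lists were 2 of 5 near end-1, 2 of 6 near end-3 and 5 of 10 near elt-7. At neither of the 2 near end-1 did the replicate 1 region reach the pooled summit. At that 5017 bp past end-1, the 2 replicate regions did not overlap each other. Requiring the summit of each replicate within 100 bp of the pooled summit left 1 region near the 3 genes, that 6382 bp past elt-7. The share of all pooled regions that pass this rule is not given here. Of the 9, 8 ranked better in replicate 2, where 8511 of all 16769 such regions did. This tally depends on matching each pooled region to the strongest overlapping replicate region. At the ddx-17 summit 2853 bp upstream of end-3 it used the neighbouring region of rank 313. The closer replicate 2 region there had rank 10446, against 10174 in replicate 1. Some of the 9 share replicate regions, so they are fewer than 9 independent observations, and with 2 replicates no p-value was computed. The best rank near each gene was 19122 (end-1), 3052 (end-3) and 12362 (elt-7) in replicate 1, and 571, 313 and 5390 in the same order of genes in replicate 2. The order of the 3 genes by their strongest signal was end-3, end-1, elt-7 in the pooled list and in replicate 2, and end-3, elt-7, end-1 in replicate 1. The strongest pooled regions of end-3 and end-1 had replicate means of 32.3 and 27.6, closer to each other than their SDs of 19.0 and 19.6, but both SDs hold the same gap between the replicates. Within each replicate the end-3 region was higher, at 18.9 against 13.8 in replicate 1 and 45.7 against 41.4 in replicate 2. The 13.8 belongs to a replicate 1 region that did not reach the pooled summit near end-1. The elt-7 region had 17.0 in replicate 1, between those of end-3 and end-1, and 19.98 in replicate 2, below both. With 2 replicates, no neighbours in the order were tested.

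The sequence at the strongest summits held no GATA-type site. The windows of 100 bp on each side are printed to show what the strongest region near each gene contains, together with the window inside end-1 and the stretch next to the elt-7 promoter summit that lies outside any annotated UTR. All are the plus strand, with sites in capitals.
strongest near end-1, chrV:13989225-13989425: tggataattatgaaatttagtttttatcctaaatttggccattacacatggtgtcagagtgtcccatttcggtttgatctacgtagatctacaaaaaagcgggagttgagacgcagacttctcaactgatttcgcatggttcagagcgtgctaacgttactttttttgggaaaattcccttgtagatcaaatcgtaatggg
strongest near end-3, chrV:14011513-14011713: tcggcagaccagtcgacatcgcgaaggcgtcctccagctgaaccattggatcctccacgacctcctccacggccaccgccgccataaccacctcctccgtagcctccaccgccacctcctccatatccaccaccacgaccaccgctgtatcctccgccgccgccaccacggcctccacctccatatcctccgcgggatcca
strongest near elt-7, chrV:4779368-4779568: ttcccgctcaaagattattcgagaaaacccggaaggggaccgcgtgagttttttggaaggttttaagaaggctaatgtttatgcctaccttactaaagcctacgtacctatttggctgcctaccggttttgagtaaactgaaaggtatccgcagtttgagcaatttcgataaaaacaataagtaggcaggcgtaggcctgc
inside end-1, chrV:13986480-13986680: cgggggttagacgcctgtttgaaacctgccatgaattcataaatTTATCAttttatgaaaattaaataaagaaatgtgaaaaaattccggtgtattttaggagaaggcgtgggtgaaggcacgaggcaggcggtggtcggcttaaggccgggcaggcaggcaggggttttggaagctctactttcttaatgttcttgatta
by the elt-7 promoter summit, chrV:4769734-4769804: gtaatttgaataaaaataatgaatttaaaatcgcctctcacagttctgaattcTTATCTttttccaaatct

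A GATA-type site lay within 100 bp of 4 of the 21 pooled summits, against 29.3% of all pooled regions. The 4 were the summit inside end-1, with TGATAA centred 54 bp before it, and 3 near elt-7, at 4982 bp upstream (AGATAA, 24 bp away), at 966 bp upstream (AGATAA, 85 bp away) and at 8750 bp upstream (TGATAG, 97 bp away). The 6 pooled regions near end-3 had 0. Of the 10 replicate 1 regions there, 1 had sites. It held 3, with the summit 2885 bp past end-3 in the 5′ UTR of T08G5.1 (rank 18092), and overlapped no pooled region. The full TGATAA occurred at 1 of the 21 summits, against 12.5% of all pooled regions. The pooled ranks of the 4 summits with a site ran from 20061 to 27798, in the weaker part of the list. In the replicate lists, a GATA-type site lay at 5 of 22 regions in replicate 1 and 4 of 16 in replicate 2. For TGATAA the counts were 4 of 22 and 2 of 16. In all, 60 such sites lay within 10 kb of end-1, 66 of end-3 and 46 of elt-7. No count for other genes is given here, so these are not called many or few. Of these 172 sites, 4 (2.33%) lay within 100 bp of a pooled summit, while such windows covered 6.43% of the same sequence. This difference was not tested.

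GC content around the 21 summits averaged 41.1% ± 8.13 (SD over 21 regions), against 43.2% ± 7.36 over all pooled regions and 53.3% ± 7.09 over the IDR peaks. The pooled region of highest signal near the 3 genes was also the richest in GC: the ddx-17 window near end-3 had 65.7%, a value reached by 53 of the 30000 pooled regions (0.177%). The replicate 2 window there had the same 65.7%. The replicate 1 window, with its summit 2979 bp upstream of end-3, had 54.7% and rank 10174 in that list. The strongest replicate 1 region near the 3 genes was another, of rank 3052 and 44.3% GC. The strongest window near end-1 had 38.8% and that near elt-7 had 44.3%. The whole 10 kb surroundings had 35.1% (end-1), 35.6% (end-3) and 34.98% (elt-7). Every 36-mer of the ddx-17 window was unique in the genome, as in 14 of the 21 windows. The same count was not made over all pooled regions. In the strongest window near end-1, 16.3% of 36-mers had another copy elsewhere in the genome, and the share was highest, 56.6%, at the summit 388 bp past elt-7. Whether GC content or repeated sequence moved the signal was not tested. No tRNA or snoRNA gene lay within 500 bp of any of the 21 summits.

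**Figure D3:**
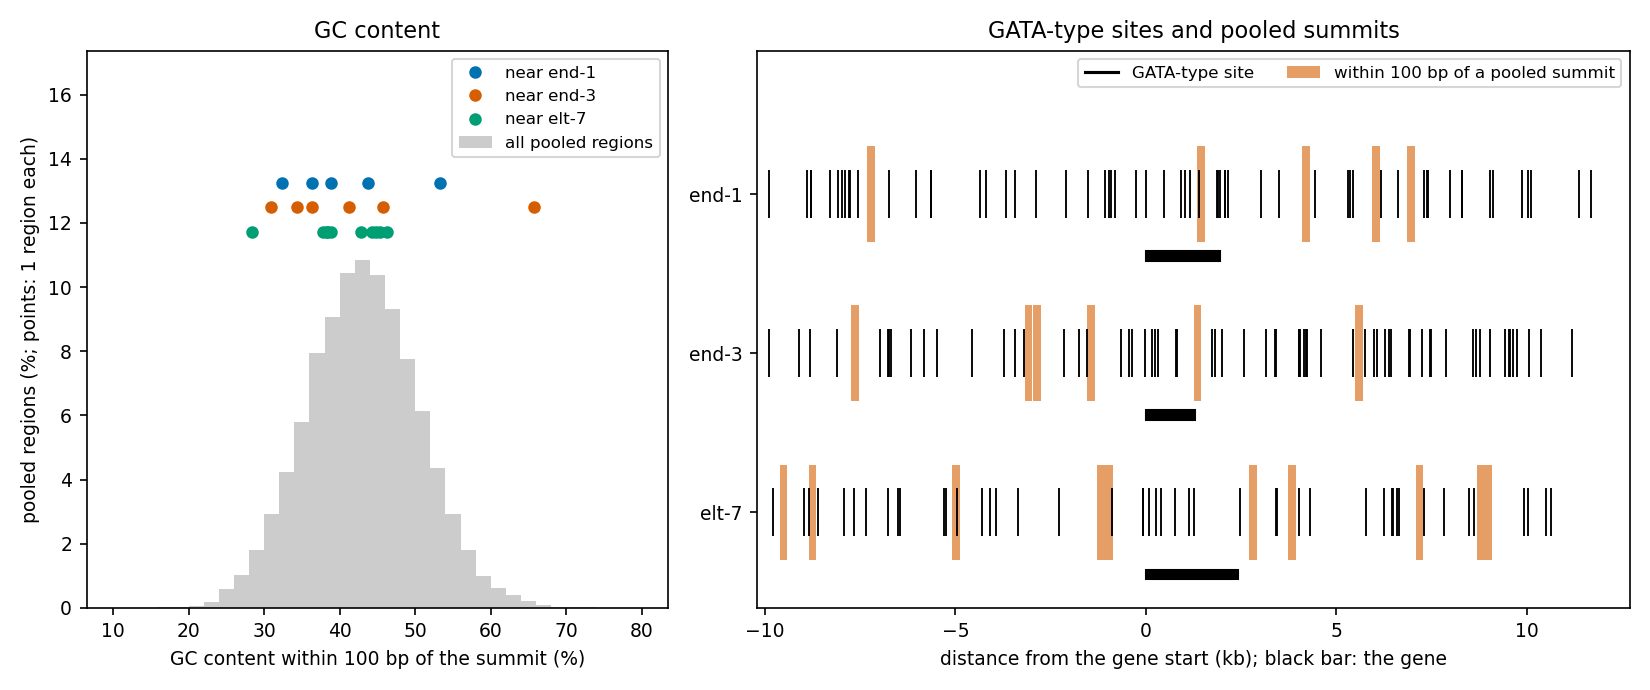
Left, GC content (%) within 100 bp of the summit for all pooled regions (grey histogram, % of regions) and for the regions near each gene (1 point each); the point at 65.7% is the ddx-17 region near end-3. Right, every GATA-type site (black ticks) within 10 kb of each gene against distance from its start (kb), with the stretches within 100 bp of a pooled summit in orange; 4 of the 172 ticks fall in orange.

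The members' regions depend on the limit of 10 kb. Past it, the nearest pooled summits were 20255 bp upstream and 14360 bp downstream of end-1 (signals 25.2 and 21.9), 10036 and 10878 bp from end-3 (27.9 and 25.99), and 12299 and 10519 bp from elt-7 (32.4 and 50.1). The last inside it had 23.0 and 23.8 at end-1 (7215 and 5017 bp), 29.1 and 29.6 at end-3, and 25.2 and 28.5 at elt-7 (9513 and 6581 bp). At 17938 bp past elt-7, in coding sequence of R02F11.12, lay an IDR peak of signal 86.5 and rank 184, with 38.9 in replicate 1 and 47.1 in replicate 2. Between the facing ends of end-1 and end-3 there were 11 pooled summits.

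Of the other genes of the pathway, a list of 14 was read in the same way. None of the 14 had an IDR peak within 10 kb, where 7.33% of all protein-coding genes did. Of the 14, 4 had a region with a q-value of at most 0.05 (23.1% of all protein-coding genes did). The median count was 7 regions, against 6 over all protein-coding genes. The 4 were pop-1, the TCF factor of the Wnt pathway (signal 78.5, rank 346), and wrm-1, a beta-catenin gene (76.3, rank 406), lit-1, a kinase acting with WRM-1 (70.1, rank 684), and gsk-3, a kinase gene (68.9, rank 749). All 4 are longer than the members, at 4266 to 22414 bp against 1286 to 2417 bp, so their surroundings are wider. Of the list, skn-1 (9346 bp), apr-1, pal-1, sys-1 and mom-5 are also longer than wrm-1 (4266 bp) and had no such region. Whether gene length bears on these calls was not tested. Upstream of the members, skn-1 reached 39.3 (rank 7468), med-1 53.5 (rank 2442) and med-2 27.8 (rank 18356). Downstream, elt-2 had 1 pooled region, of signal 46.1 and rank 4384, and elt-4 had 0 in all 3 lists. The transgene adds elt-4 sequence, of an extent and copy number not given here. Its effect on calls at elt-4 and at elt-2, which lies nearby on chromosome X, was not tested. The remaining 5, the beta-catenin gene sys-1 (50.7), the Caudal homologue pal-1 (33.3), the Wnt ligand gene mom-2 (28.1), the Frizzled receptor gene mom-5 (54.95) and the APC-related apr-1 (49.9), had best ranks from 2209 to 17969. A pooled summit lay in the promoter window of skn-1, pal-1, wrm-1 and lit-1, that is 4 of the 14, against 33.7% of all protein-coding genes.

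**Figure D4:**
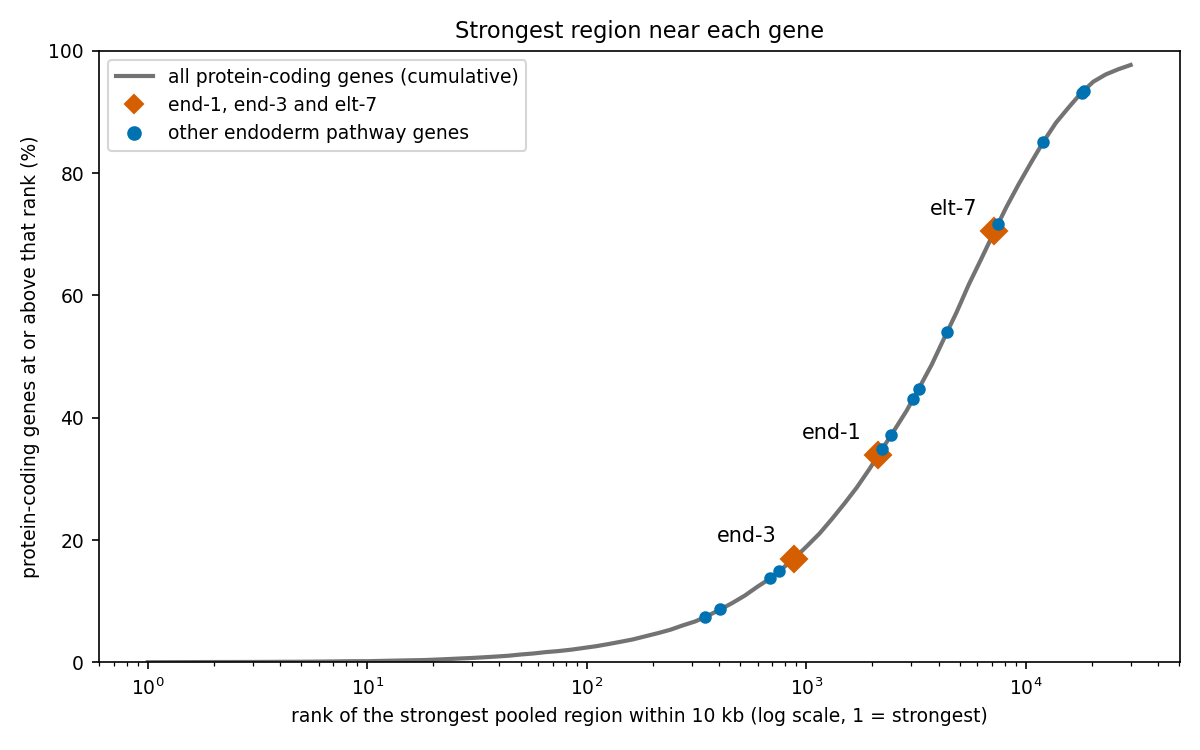
Cumulative share of protein-coding genes (%, y axis) by the rank of their strongest pooled region within 10 kb (log scale, 1 = strongest), with end-1, end-3 and elt-7 (diamonds) and the 13 other pathway genes that had a region (circles) placed on the curve. The members stand at ranks 876, 2122 and 7194, within the spread of the pathway genes.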

How the data were processed

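ChIP-seq of 2 biological replicates is given as narrowPeak region lists that the authors deposited. Per the notes deposited with the samples, each replicate list and the pooled list were called against a control file, and the IDR list was derived from these lists. Not given in the sources used here: aligner, peak caller, their versions and the cutoff of the IDR filter. Signal is the value per region in the deposited lists, on an unstated scale and not scaled between lists (median 16.4 in replicate 1, 18.3 in replicate 2). The q-values come from the deposited −log10 column. No read depth was used, so depth is unknown and no interval that needs it is given. The p-value column, set to -1, and the ce10 lists were not used.

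Lists on ce11 were read with Ensembl release 115 annotation of WBcel235, the same assembly; every region ended inside its reference chromosome. Coordinates are 1-based. Pooled regions were matched to the replicate region of highest signal that shared at least 1 bp. Python 3.11.15, numpy 2.4.6 and pandas 2.3.3 were used, and the counting and motif steps were tested on simulated data. The design has 1 group, so no p-value was computed. The genes and lists were chosen with earlier results of these data known, and the 300 bp stretch and AGTATAC were chosen after values were seen. Named genes are the members, the genes holding or nearest to their summits, their neighbours, the pathway list, and genes at the edge of the 10 kb limit.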

Additional observations from a re-analysis of the deposited data

How the results depend on the processing

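No paired analysis was possible because there is a single group. Of 55 alternatives, 32 were scored as close to the reported value and 23 as moving it, by limits not given here. The tally includes wider windows, shorter motifs and single-replicate signals set against pooled ones, so it is not a measure of robustness. Within 5 kb in place of 10 kb, the pooled regions numbered 3 near end-1 and 6 near elt-7, whose strongest signal was then 36.2. Within 20 kb they numbered 10 near end-1, 12 near end-3 and 17 near elt-7, and the strongest near elt-7 had 86.5. Kept at a q-value of at most 0.05, they numbered 0, 1 and 0 near end-1, end-3 and elt-7. Leaving out each replicate in turn gave 5 to 6 regions near end-1, 4 to 10 near end-3 and 6 to 7 near elt-7, with strongest signals of 14.7 to 41.4, 26.7 to 45.7 and 17.6 to 25.6; the lists of single replicates have lower signals throughout, so these are not on the pooled scale. Regions with a GATA-type site numbered 1 when only TGATAA counted, 16 when any GATA counted, 1 within 50 bp and 11 within 200 bp, where wider windows and shorter motifs admit more matches. Mean GC content was 43.4% within 50 bp. Requiring the summit of each replicate within 100 bp of the pooled summit left 1 region seen in both replicates. With unknown depth, a region missing from a list is not shown to lack binding, and each of the pooled and replicate lists holds 30000 regions.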
